A study of Mus musculus with 12 samples.

Results

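The 35 mouse genes described here make the fat of milk and the fatty acids it is built from. They were chosen by name: each probe whose gene symbol in the array's probe annotation was one of the 35 was taken, with Adfp read as Plin2 and Agpat6 as Gpat4. The annotation held 57 probes for 33 of the genes, and none under the symbols Acsl1 and G6pdx. Of these, 41 probes for 30 genes were detected in at least 2 of the 8 RNA samples and were tested, among 11292 tested genes of 19057 with a probe in the whole series. The probes for Acaca, Me1 and Pgd were detected in 0 of the 8 samples and were not tested, which does not show that these genes were silent. A probe counted as detected in a sample when its mean detection p-value over that sample's arrays was under 0.05.

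Expression was measured in sorted mammary epithelial cells of female FVB/NJ mice in 4 groups of 2 RNA samples. The groups were ovariectomized (ovx) MaSC-enriched, control MaSC-enriched, ovx luminal and control luminal cells. Ovariectomy removes the main source of oestrogen and progesterone; it was done at 8 weeks of age, and the glands were collected 4 weeks later from pools of 6 mice. The labels give no age, sham operation or pool size for the control pools, and no mating or lactation state for any pool. All samples were depleted of cells carrying CD45, CD31 or TER119 and sorted on CD24 and CD29 at a stated purity above 90%. The MaSC-enriched fraction (CD29hi CD24+) is named for mammary stem cells but also holds basal and myoepithelial cells, and the luminal fraction (CD29lo CD24+) holds the cells that face the duct lumen. Each of the 4 mouse pools gave 1 sample of each fraction, and a second array was read for 4 of the 8 RNAs, which makes 12 arrays on 2 BeadChips.

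Milk fat is made in luminal alveolar cells. Acetyl-CoA exported from mitochondria as citrate is carboxylated and built into fatty acids in the cytosol, with NADPH as the reductant, and the chains are then elongated, desaturated, activated with coenzyme A and esterified to glycerol. The resulting triacylglycerol gathers in droplets that are coated by perilipin 2 and leave the cell wrapped in membrane that carries butyrophilin and xanthine oxidoreductase. The transcription factor SREBP-1, encoded by Srebf1, is a well known activator of many of these enzymes, and the synthesis of milk fat rises steeply at the onset of lactation.

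Promoter windows from RefSeq (GRCm38.p6), running from 250 bases before to 50 after an annotated start, matched 26 of the 35 genes with 35 windows of 300 bases. Those below belong to Agpat2, Srebf1 and Plin2, the genes whose brightest probes passed the test between fractions, and to Fabp3, the gene with the lowest p in the ovx comparison of luminal cells. They are written 5′ to 3′ in lower case, with CCAAT boxes (CCAAT, read on both strands) and E-boxes (CACGTG) in capitals. Of the Srebf1 windows, 1 is shown.
Agpat2, chr2:26604368-26604667, minus strand: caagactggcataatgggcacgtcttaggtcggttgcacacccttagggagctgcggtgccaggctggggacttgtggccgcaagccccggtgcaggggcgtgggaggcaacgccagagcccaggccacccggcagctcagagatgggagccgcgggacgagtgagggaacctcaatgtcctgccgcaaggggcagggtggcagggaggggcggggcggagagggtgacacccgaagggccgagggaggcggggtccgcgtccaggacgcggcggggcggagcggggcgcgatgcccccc
Srebf1, chr11:60210422-60210721, minus strand: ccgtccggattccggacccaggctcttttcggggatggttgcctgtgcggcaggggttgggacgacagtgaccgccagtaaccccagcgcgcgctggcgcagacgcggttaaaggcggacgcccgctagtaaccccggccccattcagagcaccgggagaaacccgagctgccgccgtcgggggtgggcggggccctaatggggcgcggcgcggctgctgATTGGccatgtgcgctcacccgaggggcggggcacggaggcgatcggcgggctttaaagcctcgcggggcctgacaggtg
Plin2, chr4:86670010-86670309, minus strand: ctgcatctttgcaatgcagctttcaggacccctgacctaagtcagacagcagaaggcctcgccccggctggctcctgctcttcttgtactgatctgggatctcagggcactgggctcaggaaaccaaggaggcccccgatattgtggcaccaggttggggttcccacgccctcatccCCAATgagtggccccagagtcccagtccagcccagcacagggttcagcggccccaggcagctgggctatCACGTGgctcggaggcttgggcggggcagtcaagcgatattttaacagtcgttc
Fabp3, chr4:130308488-130308787, plus strand: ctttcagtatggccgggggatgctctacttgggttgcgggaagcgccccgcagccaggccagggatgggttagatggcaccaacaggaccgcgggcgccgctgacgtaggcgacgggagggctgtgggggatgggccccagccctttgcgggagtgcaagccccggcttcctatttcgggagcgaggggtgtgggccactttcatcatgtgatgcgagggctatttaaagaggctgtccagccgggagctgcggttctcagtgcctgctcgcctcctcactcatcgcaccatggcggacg
A CCAAT box lay in 51.4% of the genes' windows, against 37.4% of all 32851 windows, and an E-box in 8.57%, against 7.15%. The E-box windows were those of Plin2, Elovl5 and Slc25a1. The sterol regulatory element searched (TCACNCCAC, both strands) was found in 2.86% of the genes' windows and 1.24% of all, and the Stat5 motif (TTCNNNGAA) in 2.86% and 8.3%. Each of these 2 motifs was found for 1 gene, the first for Acsl1 and the second for Agpat1. The Agpat2 and Fabp3 windows held no match to any of the 4 motifs. A match describes letters in a window and not a bound site.

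Signals below are background-corrected, quantile-normalized log2 intensities, and each gene is given by its brightest tested probe. A difference is the log2 signal of the first group named minus that of the second, with its standard error (SE), and its p-value comes from a limma model of all 8 samples, adjusted by Benjamini-Hochberg over 20995 probes, with a threshold of 0.05. An exact permutation test of 2 samples against 2 cannot go below p = 0.333, and the calls therefore rest on the spread that limma shares across probes. The labels name mouse pools as biological replicates, and their small number limits how precise any value is.

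The fractions carried the markers of their labels. Of 11 tested basal markers, 10 were called higher in MaSC-enriched than in luminal cells of ovx mice and 9 in control mice, and of 13 luminal markers 6 and 4 were called lower. The mean log2 signal over the 13 luminal markers differed between MaSC-enriched replicates. It was 11.04 in ovx and 10.89 in control replicate 1, against 9.73 and 9.80 in replicate 2. In luminal cells it was 12.45 to 13.12. Of 7 tested endothelial markers, 6 were higher in MaSC-enriched cells in both comparisons, among them Pecam1, which encodes the sorted-out CD31. The array of control MaSC-enriched replicate 1 detected the fewest probes, 12994, against 17705 to 18903 on the other 11, and its lowest detected signal was 7.29 against 5.73 to 5.93. Both samples of the control replicate 2 pool stood apart on the second principal component, and their mean log2 signal over 14 proliferation genes was 10.80 in MaSC-enriched and 11.17 in luminal cells, against 7.33 to 8.46 in the other 6 samples. Second arrays of an RNA differed by a median of 0.102 to 0.170 over the 30 genes.

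**Figure D1:**
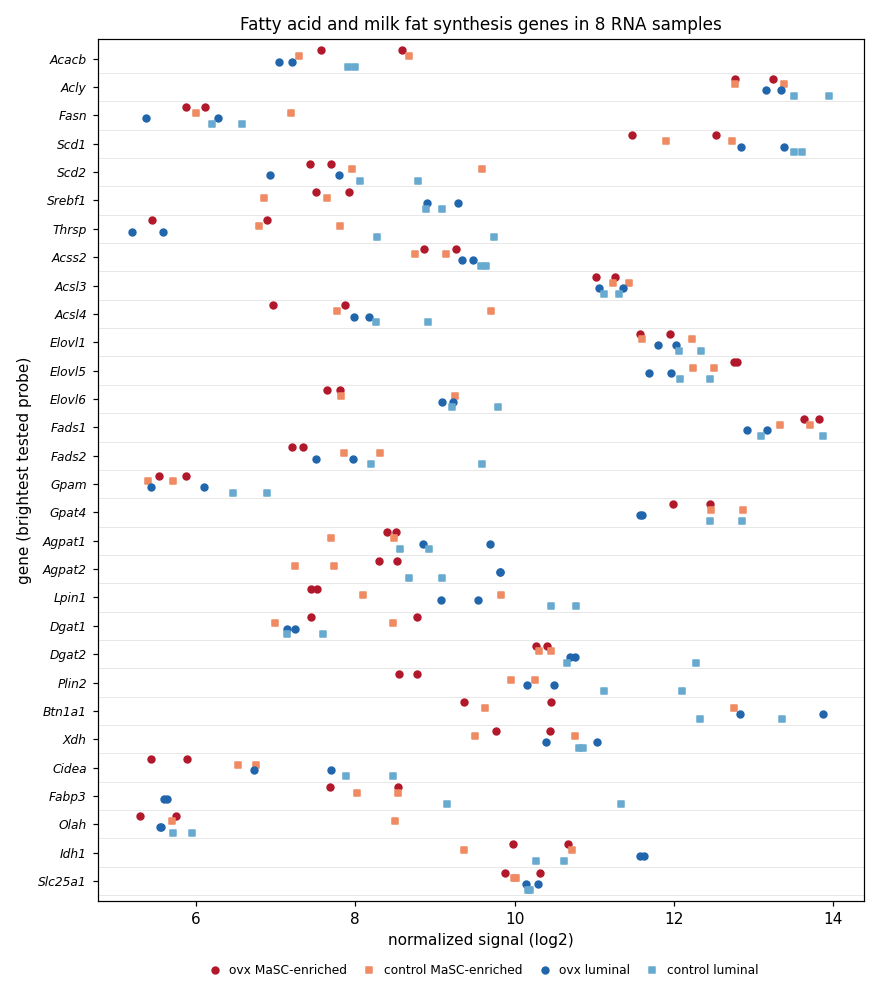
Normalized log2 signal of the brightest tested probe (x axis) of the 30 tested genes (rows) in the 8 RNA samples, with 2 points for each group. Signals of different genes come from different probes and are not comparable between rows; Fabp3 shows the widest gap between ovx luminal (5.64 and 5.61) and control luminal samples (9.15 and 11.34).

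The comparison of MaSC-enriched with luminal cells asks where in the epithelium these genes were expressed. In ovx mice the triacylglycerol enzyme gene Agpat2 and the droplet coat gene Plin2 were lower in MaSC-enriched cells, and in control mice Agpat2 and the regulator Srebf1 were lower. These were 2 of 30 genes lower and 0 higher in ovx mice, where 14.6% of all tested genes were called (8.91% higher and 5.65% lower). In control mice 2 of 30 were again lower and 0 higher, where 11.8% of all tested genes were called (6.91% higher and 4.85% lower). The share of these genes called lower was therefore near that of all genes. In such sorted bulk samples, fewer cells of a type and less RNA per cell cannot be told apart.

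Agpat2 encodes the enzyme that adds the second fatty acid to the glycerol backbone. The gene lies on chromosome 2 from 26593057 to 26604417 (GRCm38.p6). Its signal was 8.53 and 8.30 in ovx MaSC-enriched cells, against 9.81 and 9.82 in ovx luminal cells. It was 7.73 and 7.25 in control MaSC-enriched cells, against 9.08 and 8.67 in control luminal cells. The fractions did not overlap in either treatment, and each of the 4 pools showed a like gap. The difference was −1.40 in ovx mice (SE 0.321, limma adjusted p = 0.0323) and −1.39 in control mice (SE 0.321, adjusted p = 0.0389), or 2.64-fold and 2.62-fold lower. Within the pools it was −1.28 and −1.51 in the ovx pools and −1.35 and −1.42 in the control pools. A second Agpat2 probe was called lower in control mice (−2.58, adjusted p = 0.0148) and stood at −1.62 in ovx mice (adjusted p = 0.0621). In control MaSC-enriched replicate 1 that probe gave 5.98, under the array's lowest detected signal of 7.29, so its −2.58 depends on an undetected value. Leaving out any single ovx sample ended the call in ovx mice (adjusted p 0.103 to 0.211), and so did BeadChip 1 alone (−1.46, 0.251), while BeadChip 2 alone kept it (−1.56, 0.0426). In control mice the call ended without any 1 sample other than control MaSC-enriched replicate 1 (adjusted p 0.0525 to 0.194) and within BeadChip 1 (−1.54, 0.224), and held within BeadChip 2 (−1.70, 0.0447).

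Srebf1 encodes SREBP-1, the transcription factor that activates lipogenic genes, and lies on chromosome 11 from 60199084 to 60224186. Its signal was 7.50 and 7.93 in ovx MaSC-enriched cells, against 9.30 and 8.90 in ovx luminal cells. In control mice it was 6.86 and 7.64 in MaSC-enriched cells and 9.09 and 8.89 in luminal cells. Replicate 1 of control MaSC-enriched cells (6.86) was below detection, on the array whose lowest detected signal was 7.29. The fold in control mice therefore depends on an undetected value. Without the control replicate 2 pool, that undetected sample is the only control MaSC-enriched one. Every MaSC-enriched sample lay below every luminal sample. The difference in control mice was −1.74 (SE 0.375, limma adjusted p = 0.0305), or 3.34-fold lower, and that in ovx mice −1.38 (SE 0.375, adjusted p = 0.0559), which did not pass. The ovx difference did pass with an offset of 50, without background correction, in the deposited table, with averaged probes and with the pool as a random block. The call in control mice ended without any single sample other than control MaSC-enriched replicate 2 (adjusted p 0.0509 to 0.162), with the BeadChip as a block (−1.66, 0.0649) and within BeadChips 1 and 2 (−1.80, 0.193 and −1.19, 0.103).

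Plin2 encodes perilipin 2, the main coat protein of lipid droplets in secretory cells, and lies on chromosome 4 from 86626910 to 86670217. Its signal was 8.78 and 8.55 in ovx MaSC-enriched cells, against 10.16 and 10.49 in ovx luminal cells. In control mice it was 10.26 and 9.95 in MaSC-enriched cells and 11.12 and 12.11 in luminal cells. The 2 fractions were separate within each treatment, while the control MaSC-enriched and ovx luminal samples lay at like levels. The difference was −1.66 in ovx mice (SE 0.397, limma adjusted p = 0.0367), or 3.16-fold lower, and −1.51 in control mice (adjusted p = 0.0576). The control difference did pass with an offset of 50, without background correction, in the deposited table and with averaged probes. It also passed with the BeadChip as a block and with the pool as a random block. In ovx mice the call ended without any single ovx sample (adjusted p 0.118 to 0.239), without the filter on dim probes (0.0634) and within BeadChips 1 and 2 (−1.53, 0.210 and −1.83, 0.101). With the BeadChip as a block it stood at −1.79 (adjusted p = 0.0135).

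Since each pool gave both fractions, the pool can be kept as a block. With it, 4 of the 30 genes were called in ovx mice: Agpat2 (−1.40, limma adjusted p = 0.0363), Cidea (−1.55, 0.0457) and Btn1a1 were lower and Fabp3 (2.49, 0.0320) higher in MaSC-enriched cells, while Plin2 missed the threshold (0.0593). The Fabp3 value depends on ovx luminal cells, where 1 of 3 arrays detected it. Without the block Fabp3 stood at 2.49 in ovx mice (limma adjusted p = 0.0590). In control mice it ran the other way, at −1.96 (0.123), with no overlap in either treatment. Cidea was below detection in ovx MaSC-enriched replicate 1. In control mice 1 gene was called with the block, Agpat2 (0.0439), and Srebf1 was at 0.0534. These counts compare with 2 and 2 without the block. Over all probes 2748 were called with the block in ovx mice, against 2596 without it, and 2122 in control mice with or without it. When the control replicate 2 pool was left out, a choice made after the data were seen, 9 genes were called in ovx and 5 in control mice; Agpat2 (−1.40, adjusted p = 0.0165 and −1.35, 0.0482), Plin2 in ovx mice (0.0124) and Srebf1 in control mice (−2.23, 0.0232) were among them. The calls over all probes were then 4337 in ovx and 4528 in control mice, so the count rose over the whole array too.

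For Btn1a1, Cidea and Xdh, which act in droplet formation and secretion, the brightest probe passed in neither treatment. Btn1a1 encodes butyrophilin, a membrane protein of the milk fat globule. Its brightest probe gave 10.45 and 9.37 in ovx MaSC-enriched cells, against 12.83 and 13.87 in ovx luminal cells (−3.44, SE 0.988, limma adjusted p = 0.0665). In control mice it gave 12.75 and 9.63 in MaSC-enriched cells and 13.36 and 12.32 in luminal cells (−1.65, adjusted p = 0.327), so that the control samples overlapped. A second Btn1a1 probe was not detected on any MaSC-enriched array and was called lower there in both treatments. With signals under the lowest detected one raised to it, that probe was at least 2.63-fold lower in ovx mice (adjusted p = 0.0087) and at least 1.19-fold lower in control mice (adjusted p = 0.0282). Cidea, whose product promotes droplet fusion and milk lipid secretion, gave 5.43 and 5.89 in ovx MaSC-enriched cells, against 6.73 and 7.70 in ovx luminal cells (−1.55, adjusted p = 0.0567). In control mice Cidea gave 6.76 and 6.53 in MaSC-enriched cells and 7.88 and 8.47 in luminal cells (−1.53, adjusted p = 0.0663), with no overlap in either treatment. Cidea was below detection in MaSC-enriched replicate 1 of both treatments, so both of its differences depend on an undetected value. Xdh, which encodes xanthine oxidoreductase of the globule membrane, gave 10.45 and 9.77 in ovx MaSC-enriched cells, against 10.39 and 11.03 in ovx luminal cells, and 10.76 and 9.50 in control MaSC-enriched cells, against 10.81 and 10.86 in control luminal cells. The Xdh differences of −0.60 and −0.70 did not pass (adjusted p = 0.524 and 0.395).

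Among the enzymes that esterify fatty acids, Lpin1, a phosphatidate phosphatase that makes diacylglycerol, gave 7.52 and 7.44 in ovx MaSC-enriched cells, against 9.08 and 9.54 in ovx luminal cells (−1.83, limma adjusted p = 0.0760). In control mice Lpin1 gave 9.83 and 8.10 in MaSC-enriched cells and 10.77 and 10.45 in luminal cells (−1.65, adjusted p = 0.109). Its second tested probe differed by −1.90 and −1.76, without a call. Dgat2, which catalyses the last step to triacylglycerol, stood at −0.39 in ovx and −1.09 in control mice, and its counterpart Dgat1 at 0.91 and 0.37. Agpat1, a relative of Agpat2, stood at −0.82 and −0.65. Gpam and Gpat4, the acyltransferases of the first step, stood at −0.06 and 0.63 in ovx mice. In control mice Gpam was at least 1.10-fold lower in MaSC-enriched cells, where no array detected it, and Gpat4 stood at 0.02. No difference of Dgat2, Dgat1, Agpat1, Gpam or Gpat4 passed (adjusted p 0.100 to 0.981).

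No gene of fatty acid synthesis itself or of its supply passed between fractions. Acly, which cleaves citrate to acetyl-CoA, gave 13.24 and 12.76 in ovx MaSC-enriched cells, against 13.34 and 13.16 in ovx luminal cells, and 13.38 and 12.77 in control MaSC-enriched cells, against 13.50 and 13.94 in control luminal cells. Fasn, the fatty acid synthase, had dim signals and was detected in 5 of 8 samples, at 5.88 and 6.12 in ovx MaSC-enriched, 6.28 and 5.38 in ovx luminal, 7.20 and 6.00 in control MaSC-enriched and 6.20 and 6.58 in control luminal cells. Its highest value, 7.20 in control MaSC-enriched replicate 1, was below detection. Between fractions Acly stood at −0.25 in ovx and −0.64 in control mice and Fasn at 0.17 and 0.21, with overlapping samples for Fasn in both treatments. Acacb, the mitochondrial form of acetyl-CoA carboxylase, stood at 0.95 and 0.03, and Acss2, which activates acetate, at −0.34 and −0.66. Slc25a1, the mitochondrial citrate carrier, stood at −0.13 and −0.18. Idh1, a cytosolic source of NADPH, gave 9.98 and 10.67 in ovx MaSC-enriched cells, against 11.62 and 11.58 in ovx luminal cells (−1.27, limma adjusted p = 0.149), and 9.37 and 10.72 in control MaSC-enriched cells, against 10.27 and 10.62 in control luminal cells. Olah, the thioesterase that releases medium-chain fatty acids in milk, was detected in 2 samples. Its signals were 5.30 and 5.75 in ovx MaSC-enriched, 5.56 and 5.55 in ovx luminal, 8.50 and 5.71 in control MaSC-enriched and 5.71 and 5.95 in control luminal cells, so that control MaSC-enriched replicate 1 alone stood high.

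The desaturases and elongases had differences of both signs, none past the threshold. Scd1, which makes monounsaturated fatty acids, gave 12.53 and 11.48 in ovx MaSC-enriched cells, against 13.38 and 12.84 in ovx luminal cells (−1.11, limma adjusted p = 0.184). In control mice Scd1 gave 12.73 and 11.90 in MaSC-enriched cells and 13.60 and 13.51 in luminal cells (−1.24, adjusted p = 0.143), again with no overlap. Scd2 stood at 0.20 and 0.35. Elovl5, an elongase of polyunsaturated fatty acids, gave 12.79 and 12.75 in ovx MaSC-enriched cells, against 11.97 and 11.68 in ovx luminal cells (0.95, adjusted p = 0.0916). In control mice Elovl5 gave 12.23 and 12.50 in MaSC-enriched cells and 12.08 and 12.45 in luminal cells (0.10). Elovl6, which lengthens palmitate, gave 7.65 and 7.81 in ovx MaSC-enriched cells, against 9.23 and 9.09 in ovx luminal cells (−1.43, adjusted p = 0.111), and 7.82 and 9.26 in control MaSC-enriched cells, against 9.22 and 9.79 in control luminal cells (−0.96). The brightest of 4 Elovl1 probes stood at −0.15 and −0.29; the others ran from −0.88 to −0.41 in ovx and from −1.45 (adjusted p = 0.0630) to −0.05 in control mice. The desaturases Fads1 and Fads2 stood at 0.69 and 0.04 and at −0.46 and −0.81. A second Fads2 probe stood at 0.41 in control mice, opposite in sign. The acyl-CoA synthetases Acsl3 and Acsl4 stood at −0.07 and −0.66 in ovx mice and at 0.12 and 0.15 in control mice.

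Of the 30 genes, 13 were lower in MaSC-enriched than in luminal cells in each of the 4 pools, which held for 30.7% of all tested genes, and 1, Elovl5, was higher in all 4, which held for 22.7%. The 13 were Acly, Scd1, Srebf1, Acss2, Elovl6, Fads2, Agpat1, Agpat2, Lpin1, Dgat2, Plin2, Btn1a1 and Cidea. The samples did not overlap and were lower in MaSC-enriched cells for 14 of 30 genes in ovx mice (36.9% of all genes) and for 15 in control mice (29.3%). They were higher for 6 genes in ovx mice (30.1%) and 0 in control mice (23.7%). The median difference of the 30 genes was −0.30 in ovx and −0.66 in control mice, and that of all tested genes −0.08 and −0.12.

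**Figure D2:**
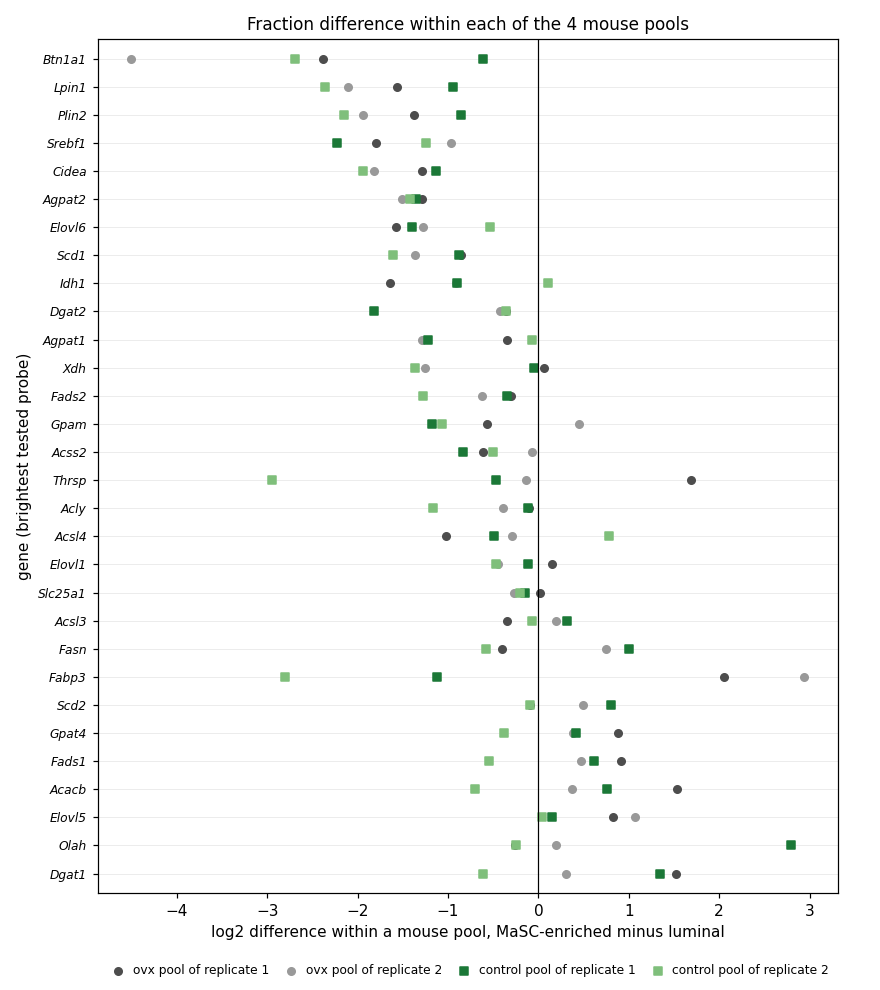
Log2 difference, MaSC-enriched minus luminal (x axis), of each tested gene (rows) within each of the 4 mouse pools (points), sorted by the mean over pools. Agpat2 lay between −1.51 and −1.28 in all 4 pools, while Fabp3 was 2.05 and 2.94 in the ovx pools and −1.12 and −2.80 in the control pools.

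The comparison of ovx with control luminal cells asks how these genes differed after ovariectomy in the fraction that holds the milk-making cells. No gene of the 30 passed the threshold, where 0.195% of all tested genes did. At an unadjusted p under 0.05, 2 were higher and 7 lower, and 8.17% of all tested genes reached it (4.67% higher and 3.5% lower). In all, 24 of the 30 differences were below 0, against 48.4% over all genes, and the median difference was −0.44, against 0.02. The 2 ovx samples lay below both control samples for 17 genes (24.2% of all genes) and above them for 2, Agpat2 and Idh1 (27.7%).

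Fabp3, the heart-type fatty acid binding protein that is also abundant in lactating mammary cells, had the smallest p. The gene lies on chromosome 4 from 130308738 to 130315463. Its signal was 5.64 and 5.61 in ovx luminal cells, against 9.15 and 11.34 in control luminal cells. Both ovx samples lay far below both control samples, and 1 of the 3 ovx luminal arrays detected the probe. The fitted difference was −4.62 (SE 0.688, limma adjusted p = 0.0758), a value that depends on the offset added near the detection floor (−3.92 with an offset of 50). It passed with the BeadChip as a block (−4.60, adjusted p = 0.00761) and without control luminal replicate 1 (−5.72, 0.0483), and stood at −3.63 within BeadChip 1 and −4.57 within BeadChip 2. Without the control replicate 2 pool it was −3.53 (adjusted p = 0.0981). In MaSC-enriched cells Fabp3 gave 7.69 and 8.54 in ovx mice, against 8.03 and 8.54 in control mice, a difference of −0.17 (adjusted p = 0.973). The difference between these effects was 4.46 (SE 0.973, adjusted p = 0.457).

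Thrsp encodes Spot 14, a nuclear protein that promotes lipogenesis in liver and lactating mammary gland. Its signal was 5.21 and 5.59 in ovx luminal cells, against 8.27 and 9.74 in control luminal cells, and 0 of 3 ovx luminal arrays detected it. With signals under the lowest detected one raised to it, Thrsp was at least 9.30-fold lower in ovx cells (limma adjusted p = 0.132). With the BeadChip as a block its adjusted p was 0.0339, and without the control replicate 2 pool 0.278. In MaSC-enriched cells Thrsp gave 6.90 and 5.45 in ovx mice, against 7.80 and 6.79 in control mice, where the groups overlapped (−1.12, adjusted p = 0.704). The fitted difference between the effects was 2.48 (adjusted p = 0.968), with the same undetected group in it. Over all 30 genes the difference of the ovx effects gave 0 calls in limma, as it did over all tested genes (0%). At an unadjusted p under 0.05 there were 2, Fabp3 and Thrsp, both with a positive difference, and 5.12% of all tested genes reached that (2.8% with a positive one).

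Plin2 had its lower signals in ovx cells of both fractions, without a call. It gave 10.16 and 10.49 in ovx luminal cells, against 11.12 and 12.11 in control luminal cells (−1.29, SE 0.397, limma adjusted p = 0.467). In MaSC-enriched cells it gave 8.78 and 8.55 in ovx mice, against 10.26 and 9.95 in control mice (−1.44, adjusted p = 0.335). Gpat4, the acyltransferase needed for milk fat in mice, gave 11.57 and 11.60 in ovx luminal cells, against 12.45 and 12.85 in control luminal cells (−1.07, adjusted p = 0.470). In MaSC-enriched cells Gpat4 gave 12.45 and 11.98 in ovx mice, against 12.87 and 12.47 in control mice (−0.45). Lpin1 stood at −1.30 in luminal and −1.48 in MaSC-enriched cells, and Cidea at −0.96 and −0.98, with no overlap of ovx and control samples in either fraction. Cidea was below detection in replicate 1 of both MaSC-enriched groups. Agpat2 ran the other way, above control in every ovx sample of its fraction, at 0.94 in luminal and 0.93 in MaSC-enriched cells (adjusted p = 0.556 and 0.463). Idh1 stood at 1.15 in luminal cells (adjusted p = 0.694).

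Among the enzymes of chain building and esterification, Fads2 stood at −1.15, Scd2 at −1.06, Gpam at −0.91 and Acacb at −0.83 in ovx against control luminal cells, with no overlap of the samples and no call. A second Fads2 probe stood at −0.70 there, with overlapping samples. Gpam, which was dim, gave 6.10 and 5.44 in ovx luminal cells, against 6.89 and 6.46 in control luminal cells, and 5.54 and 5.88 in ovx MaSC-enriched cells, against 5.71 and 5.40 in control MaSC-enriched cells. Scd2 gave 7.80 and 6.93 in ovx luminal cells, against 8.79 and 8.06 in control luminal cells. The central enzymes Acly, Scd1 and Fasn stood at −0.47, −0.45 and −0.56, and Srebf1 at 0.10. Btn1a1 stood at 0.51 and Xdh at −0.13.

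**Figure D3:**
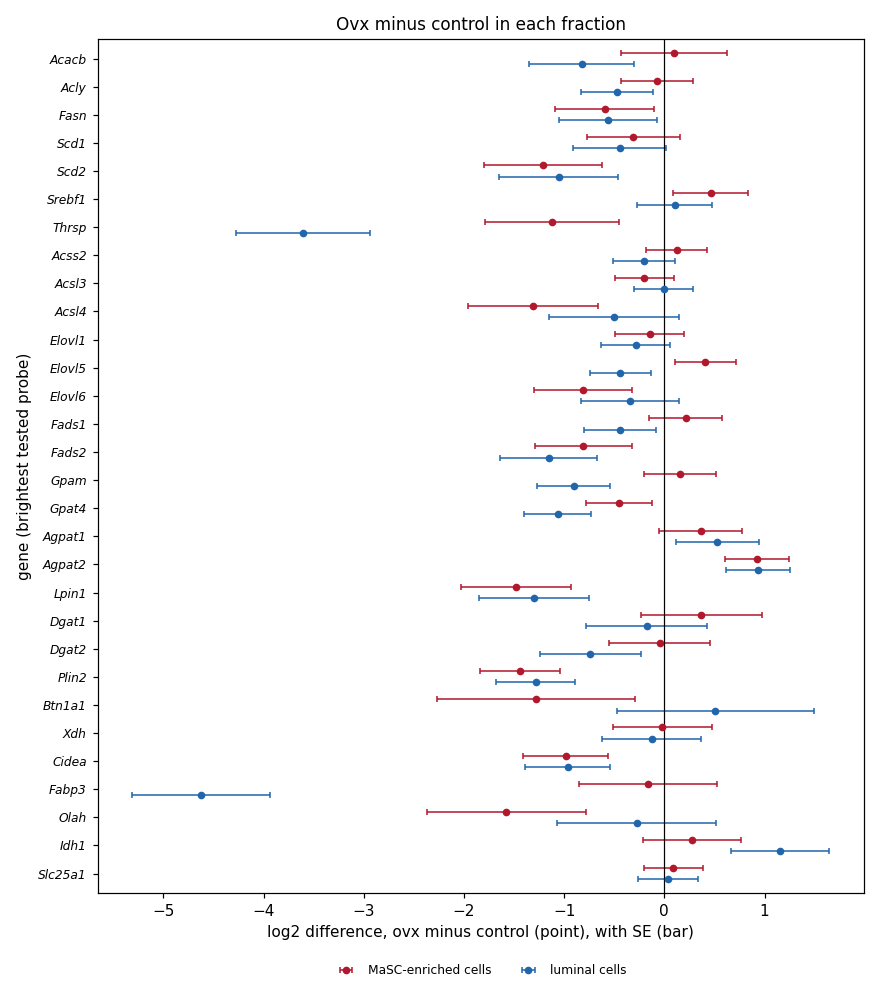
Log2 difference, ovx minus control (x axis), of each tested gene (rows), with points at the limma estimate and bars of 1 standard error, for MaSC-enriched and luminal cells. Fabp3 and Thrsp lie farthest left in luminal cells, at fitted values of −4.62 and −3.61 that rest on ovx signals at or below detection (1 and 0 of 3 arrays), and no gene passed an adjusted p of 0.05 in either fraction.

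In ovx against control MaSC-enriched cells, 0 of the 30 genes passed in limma, where 0.0708% of all tested genes did. At an unadjusted p under 0.05, Agpat2 was higher and Plin2 and Lpin1 were lower, 3 of 30, against 9.11% of all genes (5.92% higher and 3.2% lower). There were 19 differences below 0, against 44.6% over all genes, with a median of −0.16 against 0.07. The samples did not overlap for 7 lower genes (13.6% of all genes) and 2 higher ones, Agpat2 and Elovl5 (21.3%). Lpin1 gave 7.52 and 7.44 in ovx cells, against 9.83 and 8.10 in control cells (−1.48, limma adjusted p = 0.501). The 2 control samples lay far apart, and without control MaSC-enriched replicate 2 the difference was −2.35 (adjusted p = 0.0287), without replicate 1 −0.62 (0.443). Scd2 gave 7.70 and 7.43 in ovx cells, against 9.59 and 7.96 in control cells (−1.21, adjusted p = 0.640). The brightest probes of Btn1a1 (−1.28), Olah (−1.58) and Acsl4 (−1.31) overlapped between the groups. For Btn1a1 and Olah the higher control value was that of replicate 1. That sample also had the higher mean luminal marker signal (10.89 against 9.80 in replicate 2), whose part was not tested. Further tested Acsl4 probes were lower in ovx cells without overlap (−1.07, limma unadjusted p = 0.0325, and −0.59), and without a call. In control replicate 1 the latter gave 5.98, under that array's lowest detected signal of 7.29. A second Btn1a1 probe stood at −0.08. Further probes differed in sign from the brightest one for Elovl1 (0.08 against −0.15) in MaSC-enriched cells, and for Acsl4 (0.45 against −0.51) and Slc25a1 (−0.18 against 0.04) in luminal cells, all without a call.

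Other transcripts also differed between these groups. Milk protein genes, 10 tested, had a summed signal of 65890 to 75920 in ovx luminal cells, against 104600 to 107400 in control luminal cells, and of 19810 to 49880 in ovx MaSC-enriched cells, against 52950 to 80150 in control MaSC-enriched cells. The beta-casein gene Csn2 fell in both ovx comparisons (−6.24, limma adjusted p = 0.0373 in luminal and −8.46, adjusted p = 0.0113 in MaSC-enriched cells, where 1 of 3 ovx arrays detected it), and all 10 were detected in both control luminal samples. In luminal cells both ovx samples lay below both control samples for 7 of the 10 and above them for 1 (24.2% and 27.7% of all genes). In MaSC-enriched cells they did so for 6 and 1 (13.6% and 21.3%). The highest milk protein difference was 1.82 in luminal and 2.34 in MaSC-enriched cells. The sums of 5 tested adipocyte markers were 1790 to 2950 in ovx MaSC-enriched cells, against 354.9 to 355.8 in control MaSC-enriched cells, and 455.4 to 689.1 in ovx luminal cells, against 294.9 to 308.1 in control luminal cells. None of the 5 was detected in control MaSC-enriched replicate 1, and at most 2 in any luminal sample, so these sums lie partly at the detection floor. Adipoq and Lep were not detected in any luminal sample. Lep, not detected in either control MaSC-enriched sample, rose at least 15.7-fold in ovx MaSC-enriched cells (limma adjusted p = 0.0226). Fibroblast markers, 8 tested, summed to 3778 to 11150 in ovx luminal cells, against 20730 to 32320 in control luminal cells, and 11 basal markers to 5133 to 8096, against 11190 to 16710 in control luminal cells. The mean log2 signals overlapped for fibroblast markers (7.13 to 8.94 against 8.13 to 9.53) and met for basal markers (7.31 to 8.01 against 8.01 to 8.56). Both ovx samples lay below both control samples for 1 of 8 fibroblast and 5 of 11 basal markers (24.2% of all genes). The 7 endothelial markers summed to 3951 to 5295 in ovx luminal cells, against 2634 to 3048 in control luminal cells. Both ovx samples lay above both control samples for all 7 (27.7% of all genes), and 0 of the 7 had an unadjusted p under 0.05 in limma. In MaSC-enriched cells the 4 tested immune markers summed to 1333 to 2367 in ovx mice, against 700.5 to 1340 in control mice. Control MaSC-enriched replicate 1 detected 1 of the 4. Both ovx samples lay above both control samples for 1 immune marker (21.3% of all genes). The 14 proliferation genes had mean log2 signals of 7.43 to 7.68 in ovx luminal cells, against 8.46 to 11.17 in control luminal cells. The part of these cells and states in the values of the milk fat genes was not tested.

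**Figure D4:**
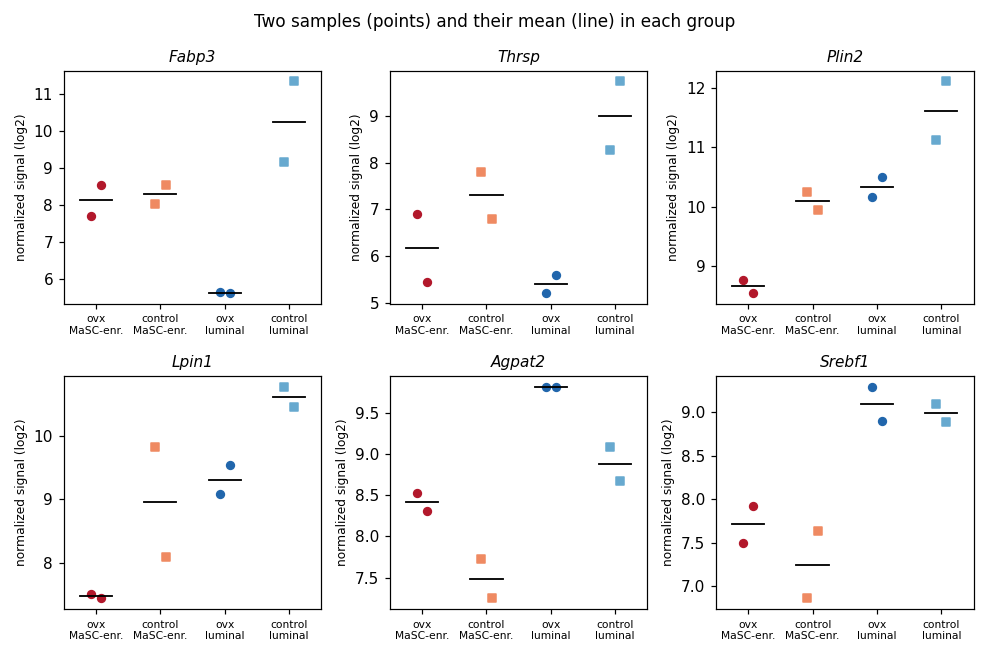
Normalized log2 signal (y axis, a separate range per gene) of 6 genes in the 4 groups, with points for the 2 samples of a group and a line at their mean. Fabp3 and Thrsp are low in both ovx luminal samples, Plin2 and Lpin1 are lower in ovx than in control samples of each fraction, Agpat2 is higher, and Srebf1 separates the fractions.

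Other genes of lipid metabolism, taken as lists by role, gave 0 calls in the ovx comparisons. Of the 56 tested, none passed in limma in either fraction, where 0.195% of all tested genes did in luminal and 0.0708% in MaSC-enriched cells. At an unadjusted p under 0.05, 0 were higher and 2 lower in ovx luminal cells (4.67% and 3.5% of all genes). In ovx MaSC-enriched cells 2 were higher and 5 lower (5.92% and 3.2% of all genes). Between fractions 6 were called higher and 3 lower in MaSC-enriched cells of ovx mice, and 7 higher and 2 lower in control mice, or 9 of 56 in each, where 14.6% and 11.8% of all tested genes were called. Of 13 tested regulators, Pparg, the nuclear receptor that drives fat cell formation, was higher in MaSC-enriched cells in ovx mice (2.13, limma adjusted p = 0.0398) and in control mice (2.22, adjusted p = 0.0407). Of 7 uptake and binding genes, the fatty acid transporter Slc27a3 was higher in both (3.70, adjusted p = 0.00232 and 2.75, adjusted p = 0.0081). Its relative Slc27a1 was lower in ovx mice (−2.14, adjusted p = 0.0101), and the lipoprotein receptor Vldlr (1.84, adjusted p = 0.0148) and the endothelial lipase anchor Gpihbp1 (2.85, adjusted p = 0.0429) were higher in control mice. Of 11 further chain enzymes, Elovl4, the elongase of very long chains, was higher in both (3.88 in ovx mice, where 1 of 3 luminal arrays detected it, and at least 42.7-fold in control mice, where none did) and the synthetase Acsl5 lower (−1.58 and −1.34). Of 10 further glycerolipid enzymes, Agpat4 was higher in both (4.63 and 2.70) and the lipase gene Mgll in ovx mice (2.20). Of 5 droplet genes, Plin4 was higher in both (4.64 and 3.52) and Fitm2 lower (−1.52 and −1.71). None of 10 further genes of NADPH and acetyl-CoA supply was called. Some markers of other cells were higher in the same fraction, with 6 of 7 endothelial markers called in both treatments and 3 of 5 adipocyte markers (Adipoq, Lep and Pnpla3) in ovx mice. Of 4 tested immune markers, Lyz2 was called higher there in ovx mice and 0 in control mice. The samples did not overlap and were higher for all 4 in ovx mice (30.1% of all genes). In control mice this held for 1 (23.7%). Ovx luminal replicate 1 detected 1 of the 4. No adipocyte marker was called in control mice. The adipocyte marker Lipe went the other way, at −1.37 in ovx and −1.31 in control mice, without a call. The part of such cells in these calls was not tested.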

How the data were processed

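The deposited non-normalized table covers 45281 probes and 12 arrays. Per the file headers it holds, for every probe and array, 1 bead intensity and 1 detection p-value. A deposited table of normalized log2 values was used as an alternative. BeadStudio and limma are named, without versions, per the submitters' processing notes; further steps are not given in the sources used here.

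The intensities went through neqc of limma 3.58.1 (R 4.3.3): background was corrected from the detection p-values, 16 was added, arrays were quantile normalized and log2 was taken. Arrays of the same RNA were averaged, and 20995 probes (46.4%) detected in at least 2 of 8 samples were kept. Between 12994 and 18903 probes were detected per array. A limma model of the 4 group means, with 4 residual and 3.22 prior degrees of freedom, gave moderated two-sided tests for 5 comparisons. The fit was tested on simulated data. Of all probes, 34885 carried 1 gene symbol, 18 several and 10378 none in GEO's platform annotation; only those with 1 were named.

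The mouse pool pairs the fractions, since by the labels both come from the same mice. Deviations from the group means correlated at 0.135 for the ovx and 0.367 for the control pools. Ovx and control samples share a replicate number and no mice. A fold written "at least" has signals below an array's lowest detected signal raised to it.

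The genes and lists were chosen with earlier results of these data known. All 35 genes are accounted for. Values per sample are given for genes past the threshold in any comparison, for the 5 with the smallest p in each, and for 12 central genes (Fasn, Acaca, Acly, Scd1, Srebf1, Thrsp, Olah, Plin2, Btn1a1, Xdh, Cidea and Fabp3), of which Acaca was not tested. Up to 4 called genes were named from each further list. Alternatives were another offset, no background correction, the deposited table, no filter, averaged probes, the BeadChip or pool as a block, each BeadChip alone, and each sample left out.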

Additional observations from a re-analysis of the deposited data

How the results depend on the processing

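No called difference of the 30 genes reversed under any alternative run. For genes outside the 30, the direction was not followed over the alternatives. The calls among the 30 genes were few and unstable. Between fractions, the 2 calls in ovx mice became 4 without background correction, 1 without the filter, 6 with averaged probes, 5 with the BeadChip as a block, 0 and 4 within BeadChips 1 and 2, 4 with the pool as a fixed and 8 as a random replicate block, and 9 without the control replicate 2 pool (added after the data were seen). With 1 sample left out the count ran from 0 to 9. The 2 calls in control mice became 4 with averaged probes, 0 within BeadChip 1, 1 with the pool as a fixed and 4 as a random replicate block, and 5 without the control replicate 2 pool; with 1 sample left out it ran from 0 to 3. For ovx against control, the count of 0 in luminal cells became 2 with the BeadChip as a block (Fabp3 and Thrsp) and 1 with the replicate number as a block (Fabp3), and ran from 0 to 1 with 1 sample left out. That number pairs no mice: same-numbered ovx and control samples deviated together at 0.587 in MaSC-enriched and 0.279 in luminal cells. The count of 0 in MaSC-enriched cells became 2 without control MaSC-enriched replicate 2 (Lpin1 and Olah), with a range of 0 to 2, and 2 without its whole pool. The control then rests on replicate 1, the array with 12994 detected probes. The difference of the ovx effects gave 0 in all 19 alternatives. The BeadChip fit also counts second arrays. The median differences with 1 sample left out ran from −0.34 to −0.26 (fractions, ovx), −0.80 to −0.53 (fractions, control), −0.63 to −0.25 (ovx, luminal), −0.38 to −0.01 (ovx, MaSC-enriched) and −0.06 to 0.50 (difference of effects). Over all probes the 2596, 2122, 33, 16 and 0 calls of these comparisons ranged over 262 to 4337, 181 to 5503, 0 to 137, 0 to 583 and 0 to 9. In the same order 22, 17, 20, 14 and 11 of the 30 genes kept their sign in every alternative. Where a fit leaves a group with 1 sample, that sample is assumed to vary like the other groups. The causes of these moves were not tested. Detection limits Fasn, Gpam, Olah, Thrsp, Fabp3 and Cidea, each below detection in at least 2 samples. Srebf1 was below detection in control MaSC-enriched replicate 1.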
